A study of Homo sapiens with 6 samples.

Results

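The genes described here are 32 genes of cholesterol synthesis, of its control by SREBP and of sterol esterification and export, chosen by name from the 58735 genes of the deposited expression table. They comprise 7 enzymes of the mevalonate and isoprenoid steps, 12 enzymes that act from farnesyl diphosphate to cholesterol, 6 regulators of SREBP and sterol uptake, 3 genes of sterol transfer and esterification, and 4 genes of sterol export and its control by LXR. The table comes from HGC-27, an established line of undifferentiated human gastric carcinoma, in which ACAT2 was knocked down. Total RNA was sequenced from 3 libraries of cells transfected with pSIH-H1-Puro-shACAT2 (shACAT2, ACAT2 knockdown genotype) and from 3 libraries of cells with pSIH-H1-Puro-shNC (shNC, WT genotype), and in both groups 24 h of exposure to the vector was followed by 7 days under puromycin. Which of the ACAT2 hairpins was used is not in the labels, and effects of the hairpin itself and of the loss of ACAT2 cannot be told apart.

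Cells build cholesterol from acetyl-CoA through mevalonate, the isoprenoids, squalene and lanosterol. ACAT2, a cytosolic thiolase, makes the acetoacetyl-CoA with which this chain begins. When sterols in the endoplasmic reticulum run low, SCAP escorts the SREBP proteins to the Golgi, where they are cut and released to switch on the genes of the chain, whereas INSIG proteins hold the SCAP complex back when sterols are plentiful. Oxysterols formed from excess cholesterol activate the LXR receptors, which switch on the export pumps ABCA1 and ABCG1 as well as MYLIP and SREBF1.

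Levels are in FPKM, the fragments on a gene per kilobase of its length, so that different genes can be set side by side. The authors scaled them with a total for each library. The libraries held between 14086416 and 16067486 fragments on genes. The scaling totals recovered from the values differed from these sums, for example 16212517 against 15082403 in shNC-2. The total was below the sum only in shACAT2-1 (15182806 against 15867286). Scaling by the fragments on genes instead moved the median log2 fold change of all tested genes from 0.016 to −0.027. Where 3 values are listed for a group, they stand in the order of the replicate numbers. ACAT2 itself had 14.2, 11.7 and 12.7 FPKM in the shNC libraries and 6.19, 5.46 and 6.05 FPKM in the shACAT2 libraries. Every shACAT2 library lay below every shNC library, and the log2 fold change was −1.01 with a standard error (SE) of 0.10 and a limma adjusted p of 0.0059, or 0.0512 without shNC-3. Genes on the opposite strand share 52.3% of the exon bases of ACAT2, and the strand setting of the counting is not given in the sources used here. Among them TCP1, on 9.2% of the exon bases, averaged 78.3 FPKM over the libraries. The SOD2 entry that overlaps here (ENSG00000285441) and SOD2-OT1 averaged 0.024 and 0 FPKM. The part of TCP1 in the ACAT2 values was not tested.

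The libraries were not evenly spread. Over the tested genes, the chi-square per degree of freedom between the fragment counts of a pair of replicates, which is 1 for sampling noise alone, was 1.77 for shNC-2 against shNC-3, whereas all other pairs of the same group had 14.2 to 54.7. These shNC libraries thus differed by somewhat more than sampling noise and were kept as separate samples, and the count of genes past the test is also given with them averaged. In shACAT2-3, 7477 genes had fragments seen in no other library, compared with 416 to 657 such genes in each of the remaining libraries. The design calls the libraries biological replicates without saying whether they were separate cultures, so the p-values measure only the spread between these libraries, which may be technical.

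Markers of the labelled cell type were low. Of 5 epithelial markers (EPCAM, CDH1, KRT8, KRT18 and KRT19), 0 reached a mean of 1 FPKM, with summed levels of 0.505 to 0.83 FPKM in shNC and 1.44 to 2.22 FPKM in shACAT2 libraries. Of 5 gastric markers 0 reached it, and TFF1 and GKN1 were at 0 in every library. The same held for 4 immune, 3 endothelial and 2 hepatocyte markers, of which 0 reached a mean of 1 FPKM. The 3 fibroblast markers DCN, LUM and COL1A1 were all expressed, and their summed levels were 98.9 to 103 FPKM in shNC and 175 to 195 FPKM in shACAT2 libraries. Both sums moved with the knockdown, and their part in the results on the sterol genes was not tested. In bulk RNA, fewer cells of a type and less RNA per cell cannot be told apart.

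Along the sterol chain, shACAT2 cells had more mRNA of the squalene epoxidase SQLE and of the sterol desaturase SC5D, and less of the export pump ABCG1. SQLE was the most highly expressed of the 32 genes, and its mean was 40.8% higher. Of the 30 tested sterol genes SC5D had the largest log2 fold change in size, with a mean 105% higher, while ABCG1 had a mean 40.6% lower. Of the 32 genes, 30 averaged at least 1 FPKM in shNC or in shACAT2 and were tested with limma on log2(FPKM + 1). SQLE, SC5D and ABCG1 passed an adjusted p of 0.05, where the adjustment was made across all 13832 tested genes. They are 3 of 30 or 10.0%, against 5.10% of all tested genes. In the table as a whole 3.30% of genes passed as higher and 1.81% as lower, against 2 and 1 of the 30. At an unadjusted limma p below 0.05 there were 8 of the 30, or 26.7%, against 23.5% of all tested genes. The number of calls changed with the libraries used. With shNC-2 and shNC-3 averaged, 0 of the 30 genes passed in limma (6 at an unadjusted p below 0.05, against 15.4% of all tested genes). In that fit 83 of all tested genes passed. The count was also 0 in limma when any of the shNC libraries or shACAT2-2 was left out. Of the 30 genes, 6 or 7 then had an unadjusted p below 0.05, against 15.1% to 19.6% of all. In these fits 63 to 135 of all tested genes passed, against 706 with all libraries. The count of sterol genes was 2 without shACAT2-3, where 704 of all 13797 tested genes passed, and 7 without shACAT2-1, where 862 of 13919 did. With 1 library left out, the log2 fold changes ran from 0.46 to 0.54 for SQLE, 0.84 to 1.07 for SC5D and −0.75 to −0.60 for ABCG1. Such fits also hold fewer libraries, and the part of this in the counts was not tested.

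Same-numbered libraries deviated together from their group means, clearly for number 1 (correlation 0.445) and weakly for numbers 2 and 3 (0.126 and 0.171). Because of these correlations in the same data, the replicate number was also entered as a block. However, shNC-2 correlated more with shACAT2-3 (0.198), shNC-3 with shACAT2-2 had 0.141, and the labels do not state a pairing. Deviations cancel out within a group, so the value for number 1 forces part of those among numbers 2 and 3. The values for numbers 2 and 3 are therefore not separate support for a pairing. In the limma fit with the block 7 of the 30 genes passed an adjusted p of 0.05, or 23.3%, against 12.5% of all tested genes, with 6 higher (7.67% of all) and 1 lower (4.81% of all). The added genes were HMGCS1, IDI1, MSMO1 and STARD4, all higher. Without the block, 18 of the 30 log2 fold changes were positive and 12 were negative, with a median of 0.032 over these genes and of 0.016 over all tested genes. The 3 shACAT2 values lay entirely above the 3 shNC values for 5 of the 30 genes (16.2% of all tested genes did so) and entirely below for 4 (14.5% of all). Together these were 30.0% of the sterol genes, against 30.7% of all tested genes, so such separation was no more frequent here than in the whole table.

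**Figure D1:**
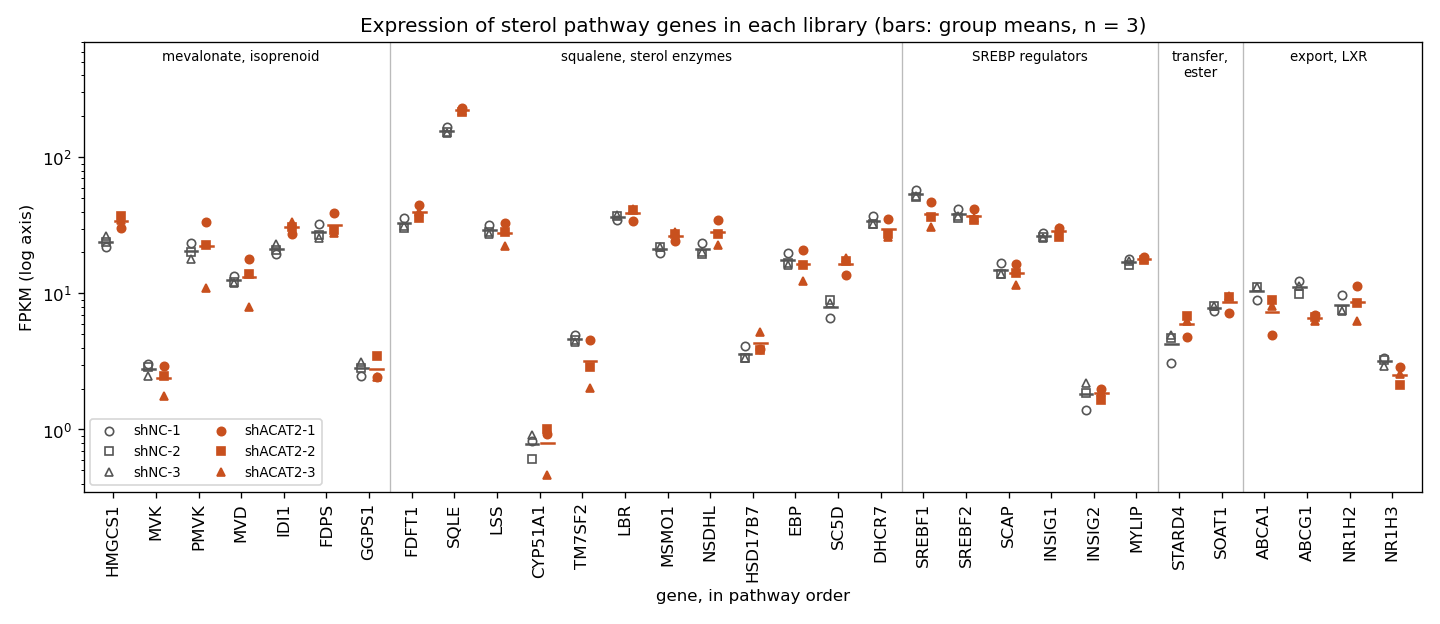
FPKM of 31 genes in each library on a log axis, in pathway order, with open grey symbols for shNC, filled orange symbols for shACAT2, a different symbol for each replicate number and bars at the group means. SC5D and SQLE lie higher and ABCG1 lower in all shACAT2 libraries, while PMVK and MVD spread widely within the shACAT2 group, and SOAT2 is left out because it is at 0 in 2 libraries.

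Of the 7 mevalonate and isoprenoid enzymes, 0 passed an adjusted limma p of 0.05 without the block (2 at an unadjusted p below 0.05), and 2, both higher, passed with it. Of all tested genes 5.10% passed without the block, 23.5% had an unadjusted p below 0.05 and 12.5% passed with the block. HMGCS1 makes HMG-CoA from the product of ACAT2. It had 22.0, 23.9 and 26.2 FPKM in the shNC libraries and 30.2, 37.0 and 34.7 FPKM in the shACAT2 libraries. All shACAT2 values were above all shNC values, and the log2 fold change was 0.48 (SE 0.12, limma adjusted p = 0.070, or 0.032 with the replicate block). IDI1 interconverts isopentenyl and dimethylallyl diphosphate, the building blocks of all isoprenoids. It had 19.6, 20.9 and 23.1 FPKM in the shNC libraries and 27.3, 30.8 and 33.7 FPKM in the shACAT2 libraries. The groups of IDI1 did not overlap either, and its log2 fold change was 0.51 (SE 0.12, limma adjusted p = 0.060, or 0.023 with the replicate block). Opposite-strand genes share 15% of the exon bases of HMGCS1 and 14.8% of those of IDI1, and these genes averaged 0.199 and 0.213 FPKM.

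The kinases and the decarboxylase between HMGCS1 and IDI1 showed another pattern. PMVK, which adds the second phosphate to mevalonate, had 23.4, 20.05 and 17.99 FPKM in the shNC libraries but 33.7, 22.8 and 11.0 FPKM in the shACAT2 libraries. The shACAT2 values thus reached both above and below the shNC range, with a ratio of 3.06 between the highest and the lowest. MVD, the decarboxylase that makes isopentenyl diphosphate, was similar, with 13.5, 12.1 and 11.98 FPKM in shNC and 17.8, 13.9 and 7.98 FPKM in shACAT2 libraries. Their log2 fold changes were 0.01 for PMVK (95% confidence interval −0.84 to 0.86) and 0.01 for MVD (−0.59 to 0.62), and differences inside these intervals could not be told from 0. The sign of both turned negative after upper-quartile or library-size scaling, which moved the median of all tested genes from 0.016 to −0.032 and −0.027. MVK, the kinase that acts on mevalonate itself, was low, with 2.46 to 3.05 FPKM in shNC and 1.76 to 2.93 FPKM in shACAT2 libraries, from 171 to 302 fragments. Its log2 fold change was −0.17 (95% confidence interval −0.53 to 0.18). MVK shares 4.7% of its exon bases with MMAB on the opposite strand, which averaged 3.565 FPKM.

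Farnesyl diphosphate synthase FDPS had 25.7 to 32.2 FPKM in shNC and 28.0 to 38.9 FPKM in shACAT2 libraries, and GGPS1, which makes the longer geranylgeranyl diphosphate for protein prenylation, had 2.49 to 3.12 and 2.41 to 3.44 FPKM. The groups of both genes overlapped. The limma log2 fold change was 0.16 for FDPS (95% confidence interval −0.21 to 0.54) and −0.02 for GGPS1 (−0.35 to 0.30). Of the exon bases of GGPS1, 41.0% are shared with other genes, and those shared with TBCE on the same strand make up 37.3% of all its exon bases, while FDPS shares 18.6% of its exon bases with the antisense gene RUSC1-AS1.

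Among the 12 enzymes from farnesyl diphosphate to cholesterol, 11 were tested. SQLE and SC5D passed an adjusted p of 0.05 as higher, 0 genes passed as lower, and 9 did not pass. The share was 18.2%, against 5.10% of all tested genes. Of the 11 log2 fold changes 7 were positive and 4 negative. With the block MSMO1 passed as well, which made 27.3%, against 12.5% of all tested genes. SQLE (ENSG00000104549) oxidises squalene and is a control point of the chain. It had 167, 154 and 150 FPKM in the shNC libraries and 230, 215 and 219 FPKM in the shACAT2 libraries, from 10759 to 15392 fragments per library. The groups were far apart for SQLE compared with the spread within them, at 157 ± 8.75 FPKM in shNC and 221 ± 7.87 FPKM in shACAT2 (SD, n = 3 each), which gives a log2 fold change of 0.49 (SE 0.10, limma adjusted p = 0.0443). The limma adjusted p of SQLE was 0.0264 with the replicate block, but between 0.0491 and 0.225 with 1 library left out, passing 0.05 only without shACAT2-1.

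SC5D (ENSG00000109929) lies on the plus strand of chromosome 11 of GRCh38, from 121292453 to 121308694, and encodes the desaturase that acts just before DHCR7. It had 6.61, 8.92 and 8.48 FPKM in the shNC libraries and 13.8, 17.3 and 18.2 FPKM in the shACAT2 libraries. The lowest shACAT2 library was thus well above the highest shNC library, and the means were 8.004 ± 1.23 FPKM in shNC and 16.4 ± 2.34 FPKM in shACAT2 (SD, n = 3 each), so that the log2 fold change was 0.95 (SE 0.15, limma adjusted p = 0.0201, or 0.0109 with the replicate block). An exact two-sided permutation test over the libraries gave p = 0.1, the smallest p that 3 against 3 allow, for SC5D as for every gene whose groups did not overlap. The limma adjusted p of SC5D with 1 library left out was below 0.05 only without shACAT2-1 or shACAT2-3, and reached at most 0.0972 without another library.

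MSMO1, which removes methyl groups from the sterol nucleus, had 19.7, 22.1 and 22.0 FPKM in shNC and 24.3, 27.3 and 28.2 FPKM in shACAT2 libraries. The groups of MSMO1 did not overlap, with a log2 fold change of 0.31 (SE 0.11, limma adjusted p = 0.140, or 0.0448 with the replicate block). FDFT1, the squalene synthase, had 30.5 to 36.1 FPKM in shNC and 35.7 to 44.4 FPKM in shACAT2 libraries and a log2 fold change of 0.28 (limma adjusted p = 0.235). NSDHL, a partner of MSMO1 in demethylation, had 19.5 to 23.4 and 22.8 to 34.9 FPKM, with 0.40 (limma adjusted p = 0.212). The groups of FDFT1 and NSDHL overlapped slightly. HSD17B7, the reductase that completes this demethylation, was lower in level, with 3.35 to 4.09 and 3.85 to 5.24 FPKM and a log2 fold change of 0.21 (limma adjusted p = 0.383).

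The groups of LSS, EBP and DHCR7 overlapped. LSS, which folds the squalene epoxide into lanosterol, had 27.6 to 32.1 FPKM in shNC and 22.4 to 33.0 FPKM in shACAT2 libraries. EBP, a sterol isomerase, had 16.2 to 19.8 and 12.4 to 20.8 FPKM. DHCR7, the reductase that follows SC5D, had 32.3 to 37.4 and 26.2 to 35.4 FPKM. Their limma log2 fold changes were −0.08, −0.12 and −0.20, and none of these 3 genes passed the test in any fit run here. TM7SF2 and LBR encode the 2 sterol reductases that can act at the same step, LBR being also a protein of the inner nuclear membrane. LBR was the more abundant, with 34.5 to 37.7 FPKM in shNC and 33.8 to 41.5 FPKM in shACAT2 libraries. TM7SF2 had 4.91, 4.58 and 4.37 FPKM in shNC but 4.58, 2.90 and 2.03 FPKM in shACAT2 libraries. The log2 fold change of TM7SF2 was −0.48 (95% confidence interval −0.97 to 0.02, limma adjusted p = 0.231) and that of LBR 0.08 (−0.20 to 0.35).

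CYP51A1, the demethylase that acts on lanosterol, did not reach the filter, with 0.820, 0.602 and 0.906 FPKM in shNC and 0.919, 1.01 and 0.465 FPKM in shACAT2 libraries, from 25 to 60 fragments. Of the exon bases of CYP51A1, 83.2% are shared with other annotated genes, 79.4% with the gene AC000120.2 on the same strand, which was listed at 0 in every library. How the authors treated fragments that lie on more than 1 gene is not given in the sources used here, its part in the low count was not tested, and no direction was drawn for CYP51A1.

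**Figure D2:**
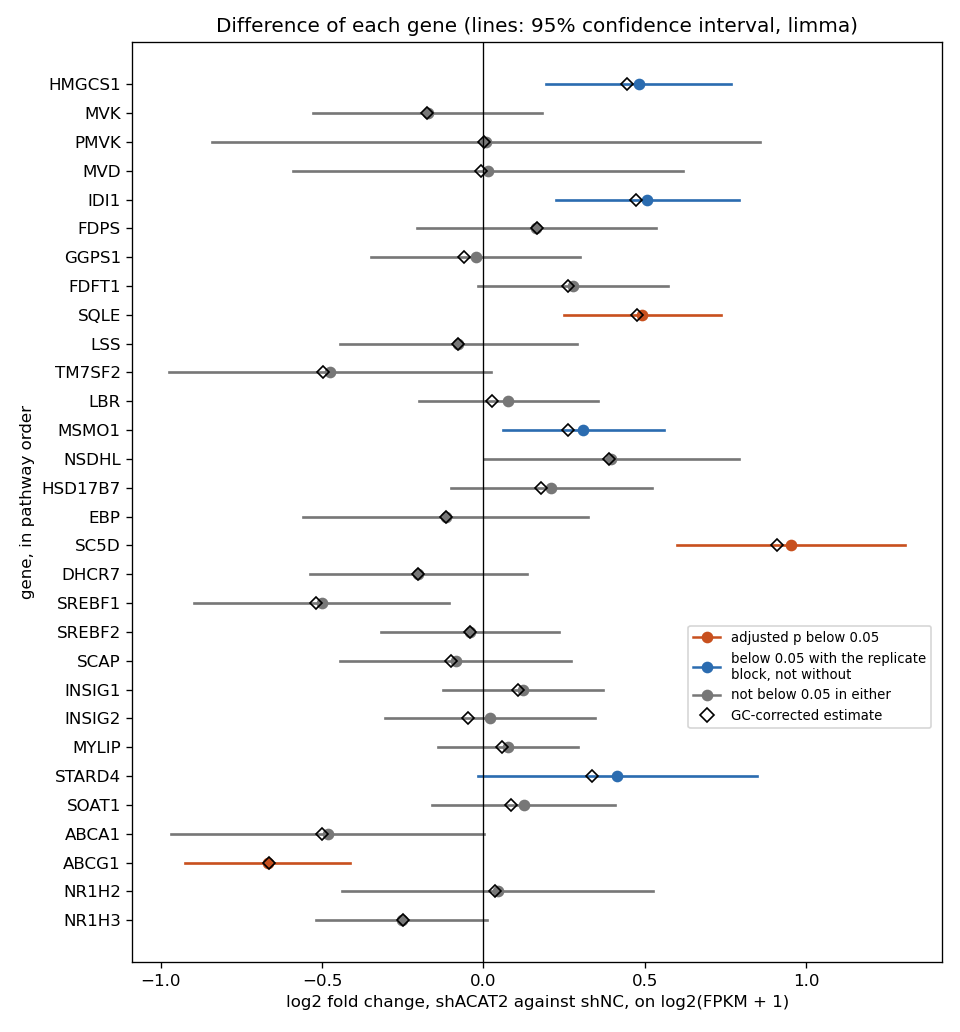
Log2 fold change of the 30 tested genes between shACAT2 and shNC libraries on the log2(FPKM + 1) scale, in pathway order, with limma 95% confidence intervals as lines and the GC-corrected estimate as open diamonds. Orange marks SQLE, SC5D and ABCG1, which passed an adjusted p of 0.05, and blue marks HMGCS1, IDI1, MSMO1 and STARD4, which passed with the replicate block but not in the same fit without it.

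Of the 6 regulators, 0 passed an adjusted p of 0.05 with limma, with or without the block, and 1, SREBF1, had an unadjusted p below 0.05. Among all tested genes 12.5% passed with and 5.10% without the block, and 23.5% had an unadjusted p below 0.05. SREBF1 and SREBF2 encode the SREBP transcription factors, the former known mainly for fatty acid synthesis and the latter for cholesterol synthesis. SREBF1 had 57.7, 51.5 and 51.8 FPKM in the shNC libraries and 47.4, 36.5 and 30.6 FPKM in the shACAT2 libraries. All shACAT2 values were lower, with a log2 fold change of −0.50 (SE 0.17, limma adjusted p = 0.134, or 0.0523 with the block). SREBF1 passed 0.05 after upper-quartile scaling, in limma-voom on the fragments and without shACAT2-1. SREBF2 had 36.1 to 41.7 and 34.8 to 41.4 FPKM, nearly the same range, with −0.04 (95% confidence interval −0.32 to 0.23). Of 7 ratios between related genes formed within each library, the ratio of SREBF1 to SREBF2 stood at 1.38, 1.43 and 1.39 in shNC and at 1.14, 1.05 and 0.861 in shACAT2 libraries. This ratio does not depend on how the libraries are scaled, and its groups did not overlap (exact two-sided permutation test, p = 0.1, the smallest possible, and 0.233 adjusted over the 7 ratios). SREBF1 shares 6.9% of its exon bases with RAI1 on the opposite strand, which averaged 12.975 FPKM.

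SCAP, INSIG1, INSIG2 and MYLIP, the last of which encodes a ubiquitin ligase for lipoprotein receptors, had overlapping groups. SCAP had 13.9 to 16.8 FPKM in shNC and 11.5 to 16.6 FPKM in shACAT2 libraries. INSIG1, itself a target of SREBP, had 25.5 to 27.6 and 26.0 to 30.4 FPKM, and its log2 fold change of 0.12 had a 95% confidence interval from −0.13 to 0.37. MYLIP, itself a target of LXR, had 16.1 to 17.9 and 17.6 to 18.5 FPKM, with 0.08 (−0.14 to 0.29). INSIG2 was near the filter, with 1.39 to 2.20 and 1.66 to 1.97 FPKM from 84 to 150 fragments. The limma log2 fold changes of SCAP and INSIG2 were −0.09 and 0.02, and both changed sign in some of the other fits.

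STARD4, which carries cholesterol between membranes, had 3.08, 4.69 and 4.96 FPKM in shNC and 4.75, 6.87 and 6.24 FPKM in shACAT2 libraries. In both groups replicate 1 was the lowest. The groups overlapped, but within each number shACAT2 was higher, and the log2 fold change of 0.41 (SE 0.18) had a limma adjusted p of 0.228 without and 0.0382 with the replicate block. SOAT1 and SOAT2 encode the enzymes that store cholesterol as esters. The SOAT2 protein is also known as ACAT2 in the sterol literature, but its gene is not the thiolase gene targeted here. SOAT1 carried nearly all of this expression, with 7.44 to 8.11 and 7.24 to 9.49 FPKM and a log2 fold change of 0.12 (95% confidence interval −0.16 to 0.41). SOAT2 had 0 or 2 fragments in each library other than shACAT2-3, where it had 20. This is the library with many genes seen nowhere else, and SOAT2 was not tested.

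Of the 4 genes of export and LXR, ABCG1 passed an adjusted p of 0.05 and fell, and the other 3 did not pass. ABCG1 (ENSG00000160179), a pump that moves sterols to high-density lipoproteins, lies on the plus strand of chromosome 21 of GRCh38, from 42199689 to 42297244. It had 12.4, 9.86 and 11.3 FPKM in the shNC libraries and 6.99, 6.68 and 6.26 FPKM in the shACAT2 libraries. The shACAT2 libraries lay close together and all below shNC, and the log2 fold change was −0.67 (SE 0.11, limma adjusted p = 0.0224, or 0.0227 with the replicate block). With 1 library left out, the limma adjusted p of ABCG1 ran from 0.0282 to 0.120 and passed only without shACAT2-1 or shACAT2-3.

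ABCA1, the pump that hands cholesterol to lipid-poor apolipoproteins, had 8.91, 11.1 and 11.1 FPKM in shNC and 4.92, 8.89 and 8.14 FPKM in shACAT2 libraries. Here too replicate 1 was the lowest of each group, and the groups only just failed to overlap. The log2 fold change was −0.48 (SE 0.21, limma adjusted p = 0.215, or 0.0543 with the block). NR1H3 and NR1H2 encode LXR alpha and LXR beta. NR1H3 had 3.33, 3.24 and 2.94 FPKM in shNC and 2.86, 2.11 and 2.56 FPKM in shACAT2 libraries, again without overlap, with −0.25 (SE 0.11, limma adjusted p = 0.231). It shares 4.2% of its exon bases with ACP2 on the opposite strand, which averaged 6.94 FPKM. NR1H2 had 7.37 to 9.82 and 6.29 to 11.3 FPKM, and its log2 fold change of 0.04 had a 95% confidence interval from −0.44 to 0.53.

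The spread within the groups followed the base composition of the transcripts. GC content was taken from the longest annotated transcript of each gene. Over all 13823 genes with a value, the difference between shACAT2-1 and shACAT2-3 on the log2(FPKM + 1) scale rose with GC content, with a Spearman correlation of 0.634, and over the 30 sterol genes the correlation was 0.859. The 15 sterol genes with under 50% GC had a median difference of −0.21 between these libraries, and the 15 with more GC had 0.54. The difference between shNC-1 and the mean of shNC-2 and shNC-3 went the same way, with correlations of 0.546 and 0.713. These are correlations across genes of the same libraries, and genes are not independent replicates. The 6 sterol genes that were lowest in shACAT2-3 relative to shACAT2-1 on this scale were PMVK, MVD, TM7SF2, NR1H2, EBP and SREBF1, whose transcripts have between 53.5% (EBP) and 64.2% (TM7SF2) GC.

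GC content also ran along the difference between the groups within this pathway. The log2 fold change had a Spearman correlation with GC content of −0.601 over the 30 sterol genes, against −0.048 over the 13823 genes. Of the 15 sterol genes with under 50% GC, 13 had a positive log2 fold change, and of the 15 with more GC, 10 had a negative one. The medians were 0.21 and −0.086, while over all genes tested they were 0.031 and −0.0031. In the whole table GC content thus had almost no correlation with the difference between the groups, and its part in the sterol genes was not tested beyond the correction that follows.

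When a smooth trend on GC content was removed from each library, a step chosen after the data were seen, 8 of the 30 genes passed an adjusted p of 0.05 in limma, or 26.7%, against 16.5% of all tested genes. HMGCS1, IDI1, SQLE, MSMO1 and SC5D were higher (9.25% of all tested genes were), and TM7SF2, SREBF1 and ABCG1 were lower (7.26% of all). The log2 fold changes themselves moved little, to 0.91 for SC5D, 0.47 for SQLE, −0.67 for ABCG1 and −0.52 for SREBF1. The limma adjusted p became 9.61e-04, 0.0071, 0.0034 and 0.0030 for these 4 genes. With the replicate block added, 12 genes or 40.0% passed, against 20.5% of all tested genes, with 8 higher (11.2% of all) and 4 lower (9.30% of all). The additional 4 were FDFT1, NSDHL and STARD4, higher, and ABCA1, lower. In that fit 7 synthesis enzymes were higher and 1, TM7SF2, was lower.

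Ratios between neighbours of the chain within a library are free of scaling but not of GC content. The ratio of SC5D to DHCR7, which act in succession, was 0.177, 0.276 and 0.260 in the shNC libraries and 0.389, 0.631 and 0.695 in the shACAT2 libraries. The ratio of SQLE to LSS was 5.21, 5.49 and 5.45 in shNC and 6.99, 7.57 and 9.75 in shACAT2 libraries. For both ratios the groups did not overlap (exact two-sided permutation test, p = 0.1, the smallest possible, and 0.233 adjusted over the 7 ratios). SC5D and SQLE are the genes called higher above, so these ratios are not separate support for that. Of all tested genes taken singly, 30.7% had groups that did not overlap, and no such share was computed for ratios. The ratio of TM7SF2 to LBR was 0.142, 0.123 and 0.116 in shNC and 0.136, 0.0709 and 0.0490 in shACAT2 libraries, and here the groups overlapped (exact permutation p = 0.3). In shACAT2-1 this ratio lay inside the shNC range. The other ratios, INSIG1 to INSIG2, ABCG1 to ABCA1 and NR1H2 to NR1H3, overlapped as well, with exact permutation p of 0.7, 0.6 and 0.3.

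The sequence before the start site was examined because SREBP proteins act together with the factor NF-Y, which binds CCAAT boxes. Promoter windows of RefSeq on GRCh38.p14 were matched by symbol for 28 of the 32 genes, and the 250 bases before each start were searched on both strands. The letters CCAAT occurred in 20 of the 28 genes or 71.4%, against 42.1% of the genes tested that had a window and 32% of all windows. For the sterol regulatory element only the letters TCACNCCAC were searched. They occurred in 1 of the 28 genes, SREBF2, or 3.57%, against 1.12% of the tested genes with a window and 0.883% of all windows. No entry was matched for ABCG1, FDFT1, SOAT2 and SQLE. Windows are shown for the genes other than SQLE that were higher with the replicate block, and for SREBF1 and SREBF2, which encode the SREBP proteins themselves. Their RefSeq starts lie inside the genes as annotated in the deposited table. The windows shown therefore reach into these genes, and that of SC5D lies wholly inside. Capitals mark CCAAT or its reverse complement and, in SREBF2, also TCACCCCAC. A match is a description of the letters and not of binding, and a missing match does not show that a promoter lacks such an element.
HMGCS1, chr5:43313413-43313662, minus strand: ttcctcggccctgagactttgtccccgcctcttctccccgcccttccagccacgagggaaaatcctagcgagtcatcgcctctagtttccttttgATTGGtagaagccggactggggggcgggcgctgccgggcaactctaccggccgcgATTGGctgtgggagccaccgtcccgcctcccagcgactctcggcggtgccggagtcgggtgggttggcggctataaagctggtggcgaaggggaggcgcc
IDI1, chr10:1049120-1049369, minus strand: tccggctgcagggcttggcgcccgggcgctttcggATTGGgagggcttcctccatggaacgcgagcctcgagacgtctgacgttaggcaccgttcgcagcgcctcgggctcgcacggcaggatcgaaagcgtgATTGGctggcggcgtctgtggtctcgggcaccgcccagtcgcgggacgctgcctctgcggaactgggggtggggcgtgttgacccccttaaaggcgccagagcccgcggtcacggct
MSMO1, chr4:165327419-165327668, plus strand: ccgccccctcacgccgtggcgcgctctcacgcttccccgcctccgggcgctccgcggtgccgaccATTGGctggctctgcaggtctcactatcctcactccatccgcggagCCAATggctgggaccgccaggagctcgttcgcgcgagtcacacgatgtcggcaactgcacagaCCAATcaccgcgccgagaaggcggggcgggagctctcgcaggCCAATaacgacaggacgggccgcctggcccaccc
SC5D, chr11:121292521-121292770, plus strand: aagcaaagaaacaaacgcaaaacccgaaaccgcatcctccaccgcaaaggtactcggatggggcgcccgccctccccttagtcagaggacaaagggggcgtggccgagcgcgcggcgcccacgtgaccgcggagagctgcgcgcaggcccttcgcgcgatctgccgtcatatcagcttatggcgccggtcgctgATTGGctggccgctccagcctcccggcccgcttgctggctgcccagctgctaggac
STARD4, chr5:111512536-111512785, minus strand: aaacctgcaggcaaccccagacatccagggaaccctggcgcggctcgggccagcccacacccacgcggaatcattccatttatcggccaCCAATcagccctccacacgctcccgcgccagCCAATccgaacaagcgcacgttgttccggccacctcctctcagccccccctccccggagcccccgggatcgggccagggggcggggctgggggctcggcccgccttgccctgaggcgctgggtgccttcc
SREBF1, chr17:17836987-17837236, minus strand: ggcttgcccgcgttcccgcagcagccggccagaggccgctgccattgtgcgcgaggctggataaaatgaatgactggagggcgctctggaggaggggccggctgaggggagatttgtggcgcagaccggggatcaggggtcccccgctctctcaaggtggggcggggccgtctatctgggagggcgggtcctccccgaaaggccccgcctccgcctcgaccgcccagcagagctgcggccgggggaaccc
SREBF2, chr22:41832855-41833104, plus strand: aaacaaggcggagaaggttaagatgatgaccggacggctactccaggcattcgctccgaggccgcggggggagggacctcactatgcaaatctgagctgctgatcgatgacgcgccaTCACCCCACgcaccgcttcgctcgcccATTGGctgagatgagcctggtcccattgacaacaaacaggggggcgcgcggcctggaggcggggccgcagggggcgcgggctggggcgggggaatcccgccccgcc

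These windows held 2 CCAAT boxes each in HMGCS1, IDI1 and STARD4, 4 in MSMO1, 1 in SC5D and in SREBF2, and 0 in SREBF1.

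Other genes of the pathway were taken from 7 lists with 86 genes, of which 69 were tested. In limma 1 of the 69 passed an adjusted p of 0.05, or 1.45%, against 5.10% of all tested genes, and 18 had an unadjusted p below 0.05, where 23.5% of all tested genes did. With the replicate block 7 of the 69 passed (4 higher, 3 lower), or 10.1%, against 12.5%. After GC correction 13 passed (5 higher, 8 lower), or 18.8%, against 16.5%. The gene called without the block or the correction was ACACA, the carboxylase that commits acetyl-CoA to fatty acid synthesis and a target of SREBP. ACACA had 22.1, 22.5 and 21.7 FPKM in the shNC libraries and 9.82, 12.5 and 12.1 FPKM in the shACAT2 libraries. The groups of ACACA lay far apart, with a log2 fold change of −0.89 (SE 0.11, limma adjusted p = 0.0107, or 0.0098 to 0.0777 with 1 library left out).

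Of the 12 other SREBP targets listed, which serve fatty acid and phospholipid synthesis apart from the sterol enzyme scaffold ERG28, 1 passed and fell (ACACA) and 11 did not pass, with 3 positive and 9 negative log2 fold changes and a median of −0.13. With the block 2 passed, 1 higher and 1 lower, or 16.7%, against 12.5% of all tested genes. After GC correction 5 passed, 1 higher and 4 lower, with or without the block, or 41.7%, against 16.5% and 20.5% of all. The 18 tested enzymes of the sterol chain had 12 positive and 6 negative log2 fold changes, with a median of 0.12. Over all tested genes 52.3% were positive, with a median of 0.016. The difference between these lists was not tested.

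In the remaining lists 0 genes passed an adjusted limma p of 0.05 without the block or the GC correction. Over all tested genes 23.5% had an unadjusted p below 0.05 and 12.5% passed with the block, and the counts of these short lists are read against those shares. Of 12 genes of SREBP processing and sterol-regulated degradation, 3 had an unadjusted p below 0.05 and 2 passed with the block. For the prenyl, dolichol and ubiquinone branch these counts were 2 and 0 of 14 genes, and for sterol transport inside the cell 2 and 2 of 14. They were 2 and 0 of 3 other LXR targets and 4 and 1 of 13 sterol sensors and other regulators. Of 9 genes of oxysterol synthesis 1 was tested, and it had an unadjusted p below 0.05 but did not pass in either fit.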

How the data were processed

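The deposited table gives FPKM for 58735 genes in each of 6 libraries, which per the labels was made on hg38. The submitters' processing notes name HISAT2 2.0.5, featureCounts 1.5.0-p3 and DESeq2 1.20.0. Strand setting and treatment of shared fragments are not given in the sources used here. All gene lengths and coordinates equal those of GENCODE release 29. FPKM multiplied by gene length and by a scaling total recovered for each library came out as whole fragments (within 0.01) for 100% of values. No per-sample column was left unused.

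Genes averaging 1 FPKM or more in shNC or in shACAT2 were tested on the log2(FPKM + 1) scale, which understates changes of low genes, by limma 3.58.1 (R 4.3.3, trended prior variance). P-values were adjusted by Benjamini-Hochberg over all 13832 genes. In simulated data, 91% of 200 genes given a log2 change of 1.5 were recovered, and 12 unchanged genes were called. The simulated counts were independent, with the same dispersion for every gene and no trend on GC content. The largest log2 fold change of a tested sterol gene was 0.95, so the simulation does not give the recovery or error rate for these genes. Python 3.11.15 was used for the other steps.

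Same-numbered libraries correlated in their deviations from the group means at 0.445, 0.126 and 0.171, all above 0.1, and the fit with the number as a block is therefore given too, although shNC-2 correlated more with shACAT2-3 (0.198) and the numbers alone, not the labels, link the libraries. The members, lists and tests were chosen with earlier results of these data known. All 32 genes and ACAT2 are named, and of each list at most the 3 genes with the smallest p past the threshold. Alternatives were 2 scalings, 2 filters, a pseudocount of 0.1, the block, limma-voom on the recovered fragments, averaging shNC-2 with shNC-3, and each library left out. The GC corrections (lowess, span 0.3) were added after the data were seen.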

Additional observations from a re-analysis of the deposited data

How the results depend on the processing

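Of the 30 tested genes, 21 kept the sign of their log2 fold change in all 16 alternatives, among them SQLE (0.43 to 0.54), SC5D (0.84 to 1.07) and ABCG1 (−0.80 to −0.60), and 9 with values near 0 changed it in at least 1. The median over the sterol genes moved by less than its spread between libraries (0.078). Its sign still changed, from 0.032 to −0.014 with upper-quartile scaling, −0.0096 with library-size scaling and −0.011 with limma-voom. The cause of the changes below was not tested.

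Against 3 genes past the threshold (2 higher, 1 lower), limma gave 0 (0 and 0, and 8 at an unadjusted p below 0.05, as were 7.43% of all genes) with no filter, where 160 of all genes passed, and 0 (0 and 0, and 6 unadjusted, against 15.4%) when the average of shNC-2 and of shNC-3 was used, where 83 passed. There were 7 (6 and 1) with the replicate block, where 1727 of all genes passed, 8 (5 and 3) GC-corrected, where 2282 passed, and 12 (8 and 4) GC-corrected with the replicate block, where 2834 passed. With upper-quartile scaling and with limma-voom 2 genes were lower (ABCG1 and SREBF1), and limma-voom called 1167 of all genes. Leaving out 1 library gave 0 to 7 genes (0 to 4 higher, 0 to 3 lower), with 0 for each shNC library and shACAT2-2 (6 or 7 unadjusted, against 15.1% to 19.6%), and over all genes from 63 (without shNC-3) to 862, against 706. ACAT2 ran from −1.07 to −0.94 with 1 library left out, with a limma adjusted p of 0.0512 without shNC-3, at −1.01. Among the sterol genes the replicate block changed no call but those of HMGCS1, IDI1, MSMO1 and STARD4.

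Sign changes on the log2 scale were as follows. The median of all tested genes itself moved from 0.016 to −0.032 with upper-quartile scaling, −0.027 with library-size scaling and −0.035 with limma-voom, a common shift of similar size to the moves of the 4 genes under these settings. Upper-quartile scaling gave PMVK −0.051, MVD −0.043, INSIG2 −0.019 and NR1H2 −0.0097. Library-size scaling gave −0.045, −0.037, −0.016 and −0.0037, and limma-voom −0.043, −0.039, −0.021 and −0.0017 for the same genes. After averaging these shNC libraries, PMVK was −0.042, MVD −0.012, GGPS1 0.0061 and NR1H2 −0.015. GC-corrected, with or without the block, MVD was −0.0067 and INSIG2 −0.048. With 1 library left out, PMVK ran from −0.34 to 0.43, MVD from −0.22 to 0.31, GGPS1 from −0.15 to 0.041, LSS from −0.20 to 0.066, EBP from −0.29 to 0.060, SREBF2 from −0.12 to 0.019, SCAP from −0.20 to 0.045, INSIG2 from −0.093 to 0.12 and NR1H2 from −0.14 to 0.23. CYP51A1, with 25 to 60 fragments, and SOAT2, with 0 to 20, were too low for the filter.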
